A study of Mus musculus with 12 samples.

Results

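The genes that make cholesterol and fatty acids were followed in mouse hearts after treatment with 3 kinase inhibitors. The list held 33 gene symbols, of which 32 were found and tested among 21705 listed genes. They were chosen by symbol: 18 act in sterol synthesis or intracellular sterol handling (the sterol arm), 5 regulate both pathways, and 9 act in or support fatty acid synthesis (the fatty acid arm). Hmgcs1, which codes for HMG-CoA synthase, was not analysed here. Heart RNA was sequenced from female FVB mice in 12 libraries, 3 per group. The groups were water control, sunitinib (40 mg/kg/day), sorafenib (30) and erlotinib (50), with 14 days of each drug. Sunitinib and sorafenib block VEGF and PDGF receptors among other kinases, and erlotinib blocks the EGF receptor. The doses differed between drugs, and each drug was given at 1 dose.

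Mammalian cells adjust both pathways through the SREBP transcription factors. SREBP2, the product of Srebf2, mainly drives sterol genes, and SREBP1, the product of Srebf1, mainly drives fatty acid genes. SCAP carries both from the endoplasmic reticulum to the Golgi for activation, and the INSIG proteins hold SCAP back when sterols are plentiful. The heart takes up most of its fatty acids and burns them, whereas liver and fat are the main sites of fatty acid synthesis.

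Total counts over the listed genes ran from 14304529 to 16534769 per library. Every group held the markers of ventricular muscle, which summed to between 119500 and 137800 CPM (counts scaled to a common library total), as the heart label requires. The sum over atrial markers ran from 172 to 944 CPM and was uneven within every group. It was 419 to 653 CPM in control. In sunitinib it was 680 and 944 CPM in Sunitinib_1368 and Sunitinib_1369 and 172 CPM in Sunitinib_1370. In sorafenib it was 235 and 221 CPM in Sorafenib_1371 and Sorafenib_1373 and 753 CPM in Sorafenib_1372, and in erlotinib it was 259 to 556 CPM. The labels do not say that the 3 libraries of a group came from separate animals, so each p-value reflects the spread between the libraries alone, which may be technical. In heart tissue, fewer cells of a type and less RNA per cell cannot be told apart.

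The promoters of Mvk, Mvd and Thrsp are shown because the RNA of these members differed between sunitinib and erlotinib hearts, as described further on, and the reference table holds a promoter for each. They are the 250 bases before the transcription start, 5′ to 3′ on the gene's strand, from RefSeq (GRCm38.p6). Capitals mark CCAAT, the box bound by NF-Y, and GGGCGG, the box bound by Sp1, on either strand (ATTGG and CCGCCC are the reverse forms). NF-Y and Sp1 are known partners of SREBP at sterol-regulated promoters. Mvk lies at chr5:114444019-114444268 on the plus strand, Mvd at chr8:122443423-122443672 on the minus strand and Thrsp at chr7:97417551-97417800 on the minus strand.
Mvk: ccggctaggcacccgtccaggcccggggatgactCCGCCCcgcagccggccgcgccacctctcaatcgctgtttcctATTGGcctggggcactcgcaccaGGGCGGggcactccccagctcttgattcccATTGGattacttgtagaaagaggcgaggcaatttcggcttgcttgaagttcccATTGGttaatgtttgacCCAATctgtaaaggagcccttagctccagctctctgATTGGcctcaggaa
Mvd: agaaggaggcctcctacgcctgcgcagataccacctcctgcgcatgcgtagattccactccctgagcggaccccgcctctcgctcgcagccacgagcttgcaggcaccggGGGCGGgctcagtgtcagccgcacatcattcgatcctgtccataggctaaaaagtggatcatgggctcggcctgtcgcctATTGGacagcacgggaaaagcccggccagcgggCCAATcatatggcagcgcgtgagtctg
Thrsp: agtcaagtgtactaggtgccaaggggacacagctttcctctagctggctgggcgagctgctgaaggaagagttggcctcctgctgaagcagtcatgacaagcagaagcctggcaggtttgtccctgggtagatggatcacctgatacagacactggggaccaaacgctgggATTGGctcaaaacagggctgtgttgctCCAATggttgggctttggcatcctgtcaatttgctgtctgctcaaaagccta
The Mvk stretch held 5 CCAAT and 2 GGGCGG boxes, the Mvd stretch held 2 and 1, and the Thrsp stretch held 2 CCAAT boxes and 0 GGGCGG boxes.

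Promoter windows of 250 bases before to 50 bases after the start were in the table for 26 of the 32 members, as 35 windows. Fdps, Fdft1, Sqle, Stard4, Scd1 and Scd2 had no window, so the shares below do not cover them. Both strands were searched, and a match to TCACNCCAC with C as its free letter also counts as a match to CACCCCAC. CCAAT was in 23 of the 35 windows (65.7%), against 37.4% of all 32851 windows in the table. GGGCGG was in 24 (68.6%), against 35.7%. By arm, GGGCGG was in 14 of 17 sterol windows, 8 of 10 regulator windows and 2 of 8 fatty acid windows. CCAAT was in 13, 5 and 5 of those windows, in the same order. The E-box CACGTG, a sequence that SREBP1 can also bind, was in 7 of 35, against 7.15% of all windows. The sterol regulatory element core TCACNCCAC was in 0 of 35 windows, against 1.24%. Its shorter form CACCCCAC was in 1 window, that of Acat2 (2.86%), against 2.87%. These are matches of letters in 1 window per start and not mapped binding sites.

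In control hearts the members spanned a wide range. On the TPM scale, which divides by transcript length and so allows genes to be compared, the highest was Thrsp at 53.6 ± 13.0 (SD, n = 3). Thrsp codes for the thyroid hormone responsive protein, a nuclear protein tied to fat synthesis in liver and fat tissue. Me1, the cytosolic malic enzyme that supplies NADPH, stood at 36.1 ± 4.81 TPM, and Insig2, a retention protein of SCAP, at 30.5 ± 1.49 TPM. Acly, the ATP citrate lyase that makes cytosolic acetyl-CoA, stood at 16.0 ± 1.26 TPM. Elovl5 at 14.9 ± 1.87 TPM and Scd1 at 14.5 ± 5.34 TPM did not differ from it, or from each other, beyond their spread.

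By mean, every sterol enzyme in the control hearts was below the members named above. The highest sterol enzyme on the TPM scale was Fdft1, squalene synthase, at 10.6 ± 0.828. Srebf2 at 10.3 ± 2.41 TPM, Pmvk at 10.2 ± 1.52 TPM and Insig1 at 9.20 ± 1.98 TPM were within their spread of it. The arms overlapped, with Fasn at 5.66 ± 1.48 TPM and Scd2 at 5.20 ± 1.23 TPM below Fdft1. At the lower end of all members stood Lss at 0.870 ± 0.233 TPM, Hsd17b7 at 0.637 ± 0.150 TPM, Sqle at 0.507 ± 0.0862 TPM and Elovl6 at 0.413 ± 0.122 TPM. Across all 12 libraries Sqle had 12 to 30 counts, Elovl6 13 to 62, Lss 15 to 54 and Hsd17b7 26 to 62. Small counts limit the precision for these 4 genes.

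**Figure D1:**
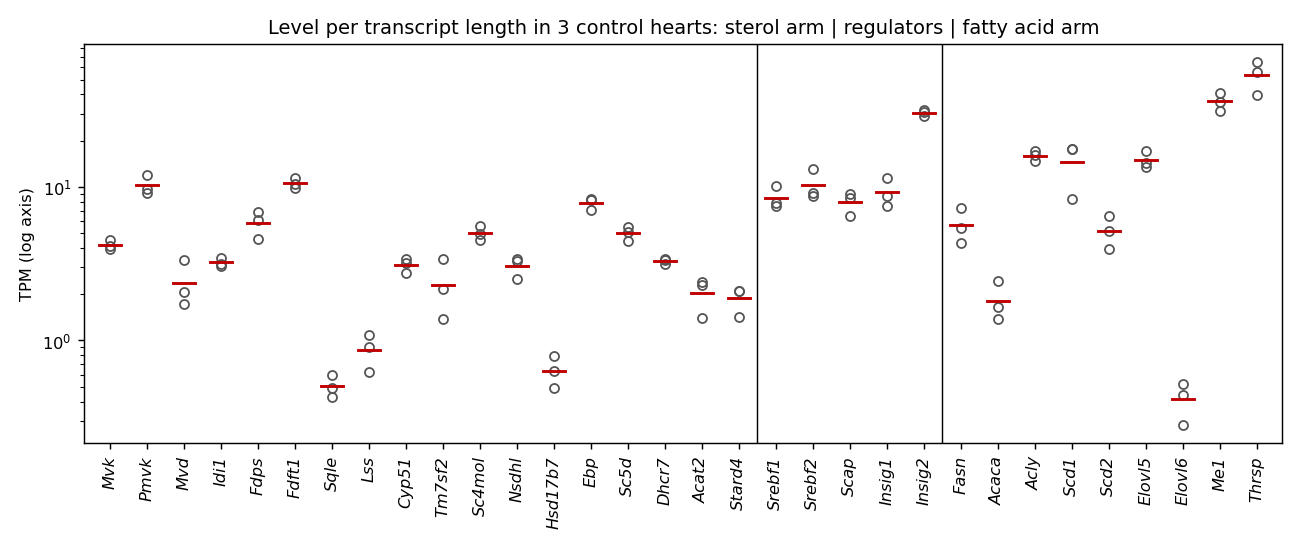
TPM (log axis) of the 32 members in the control hearts, 1 point per library with the mean of 3, ordered within the sterol arm, the regulators and the fatty acid arm. Thrsp at 53.6 TPM is the highest member and Elovl6 at 0.413 TPM the lowest.

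No member differed from control under any drug at an adjusted p below 0.05. The test was edgeR's quasi-likelihood test on rounded expected counts, with Benjamini-Hochberg adjustment over 13440 genes. Few genes of any kind passed: 0% of all genes tested under sunitinib, 0.00744% under sorafenib and 0.29% under erlotinib. When any difference between groups was tested at once, 0 of 32 members passed, against 5.45% of all genes, and 6 had an unadjusted p below 0.05, against 23.3% of all genes. Those 6 were Fdft1, Mvd, Scd2, Mvk, Thrsp and Acaca, with adjusted p from 0.101 to 0.202. The comparisons with control share the 3 control libraries, so each is given by its own values.

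**Figure D2:**
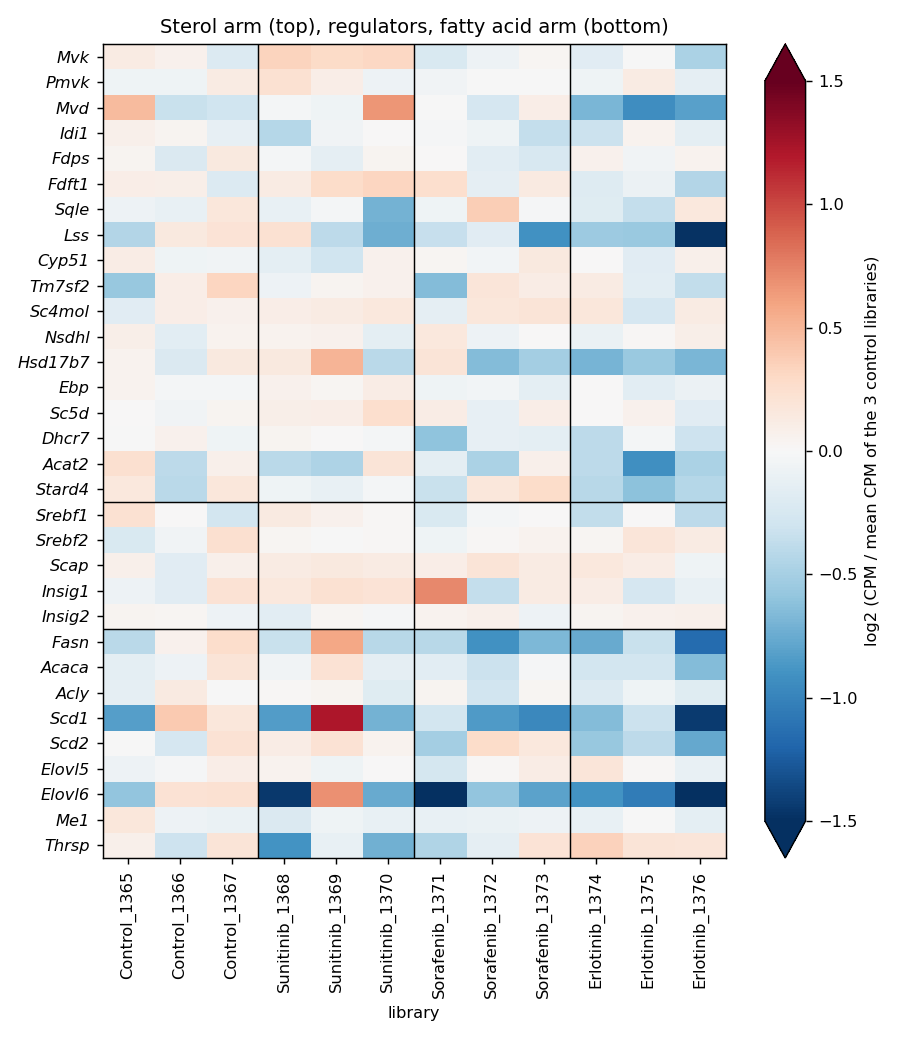
Log2 of each library's CPM over the mean CPM of the 3 control libraries, for the 32 members (rows) and 12 libraries (columns), with colours cut at their ends. Elovl6 and Scd1 differ most between libraries of the same group, as in Sunitinib_1369, and Insig2 and Ebp differ least.

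The early enzymes of the sterol arm turn acetyl-CoA into the isoprenoid units from which squalene is built. Acat2, the cytosolic thiolase that joins acetyl-CoA units, stood at 4.19 ± 0.913 CPM in control and 2.81 ± 0.520 CPM in erlotinib (SD, n = 3). Mvk, mevalonate kinase, was at 7.37, 7.07 and 5.85 CPM in the control libraries and at 8.5, 8.26 and 8.37 CPM with sunitinib. It was at 5.79, 6.40 and 6.93 CPM with sorafenib and at 6.02, 6.72 and 4.88 CPM with erlotinib. The sunitinib libraries of Mvk were the highest of all 12 and lay close together.

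Mvd, the mevalonate diphosphate decarboxylase, was at 5.72, 3.25 and 3.34 CPM in control and at 4.01, 3.94 and 6.47 CPM with sunitinib. It was at 4.09, 3.44 and 4.42 CPM with sorafenib and at 2.56, 2.16 and 2.34 CPM with erlotinib. The erlotinib libraries of Mvd were lower than every other library. Idi1, which interconverts the isoprenoid units, stayed within 6.92 to 9.78 CPM across the 12 libraries. It was at 9.78, 9.61 and 8.54 CPM in control, 6.92, 8.97 and 9.35 CPM with sunitinib, 9.19, 8.89 and 7.27 CPM with sorafenib and 7.42, 9.64 and 8.42 CPM with erlotinib, and all groups overlapped. Fdps, farnesyl diphosphate synthase, was at 7.10, 5.93 and 7.64 CPM in control, 6.74, 6.26 and 7.10 CPM with sunitinib, 6.92, 6.16 and 5.84 CPM with sorafenib and 7.23, 6.66 and 7.15 CPM with erlotinib. Its groups overlapped as well.

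Fdft1 commits farnesyl diphosphate to sterols by making squalene. It was at 40.9, 40.6 and 33.2 CPM in control and at 41.8, 46.3 and 47.7 CPM with sunitinib. It was at 45.4, 34.9 and 42.0 CPM with sorafenib and at 33.3, 36.0 and 28.3 CPM with erlotinib. All 3 sunitinib libraries lay above the control and erlotinib libraries and overlapped with sorafenib. Its counts were fractional in all 12 libraries, which marks reads shared with other genes. In the GRCm38 annotation it overlaps Ctsb, which was far more abundant at 590 to 651 CPM. The strand setting of the counting is not given in the sources used here, so reads from the overlap cannot be assigned. Reads from the overlap cannot be assigned either for Acaca, which overlaps Tada2a, Srebf1, which overlaps Rai1, and Tm7sf2, which overlaps Vps51. Unlike those of Fdft1, their counts were fractional in only 1, 2 and 0 of the 12 libraries, in that order. Ctsb itself differed between sunitinib and erlotinib by a log2 fold change of -0.08 ± 0.06 (SE), with an adjusted p of 0.424 in the same edgeR fit.

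Sqle, squalene epoxidase, was at 1.31, 1.27 and 1.55 CPM in control, 1.28, 1.36 and 0.844 CPM with sunitinib, 1.32, 1.78 and 1.36 CPM with sorafenib and 1.22, 1.08 and 1.54 CPM with erlotinib. These levels rest on few counts and overlapped. Lss, lanosterol synthase, which closes the sterol rings, was at 2.07, 3.11 and 3.22 CPM in control and at 1.92, 1.90 and 1.00 CPM with erlotinib. Cyp51, the lanosterol demethylase, was at 14.9, 13.2 and 13.3 CPM in control, 12.5, 11.2 and 14.4 CPM with sunitinib, 14.1, 13.4 and 15.3 CPM with sorafenib and 13.9, 12.2 and 14.6 CPM with erlotinib. The Cyp51 groups all overlapped.

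Of the enzymes that trim and reduce the sterol ring, Hsd17b7, a keto-sterol reductase, was at 2.80 ± 0.360 CPM in control and 1.79 ± 0.0979 CPM in erlotinib. Ebp, the sterol isomerase, Sc5d, the sterol desaturase, and Nsdhl, a sterol dehydrogenase, differed between the highest and lowest of 12 libraries by at most 1.34-fold. The same range was 1.28-fold for Pmvk, phosphomevalonate kinase, 1.36-fold for Sc4mol, the methyl sterol oxidase, and 1.97-fold for Tm7sf2, a sterol reductase of low counts. Dhcr7, the reductase that makes cholesterol, stood at 9.34 ± 0.399 CPM in control, 7.73 ± 1.35 CPM in sorafenib and 7.93 ± 1.06 CPM in erlotinib. Stard4, a cytosolic sterol carrier, was at 5.51, 3.74 and 5.55 CPM in control, 4.74, 4.58 and 4.85 CPM with sunitinib, 3.90, 5.57 and 5.98 CPM with sorafenib and 3.71, 3.23 and 3.67 CPM with erlotinib. The erlotinib libraries of Stard4 were the lowest, just under the lowest control library.

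No regulator passed in any comparison. Srebf2 was at 28.3, 32.1 and 39.2 CPM in control, 33.9, 33.2 and 33.6 CPM with sunitinib, 31.7, 33.5 and 34.4 CPM with sorafenib and 34.0, 37.7 and 36.2 CPM with erlotinib. Srebf1 was at 43.5, 37.1 and 30.6 CPM in control, 40.7, 38.7 and 37.5 CPM with sunitinib, 31.7, 36.3 and 37.1 CPM with sorafenib and 28.7, 37.1 and 28.3 CPM with erlotinib. For both genes every drug overlapped with control. Insig1, itself a classic SREBP target, was at 23.0, 21.6 and 28.2 CPM in control, 27.2, 28.4 and 27.9 CPM with sunitinib, 39.9, 18.9 and 26.4 CPM with sorafenib and 26.2, 20.4 and 22.4 CPM with erlotinib. Sorafenib_1371 and Sorafenib_1372 were the highest and the lowest of all 12 libraries. Between sunitinib and erlotinib the groups did not overlap for 4 of the 5 regulators, 2 higher and 2 lower with sunitinib. Of all genes tested, 18.1% were higher without overlap in that comparison and 15.6% were lower. With sunitinib Srebf1 was higher, at 0.31 ± 0.13 (log2, SE; edgeR adjusted p = 0.134), as was Insig1, at 0.27 ± 0.22 (0.459). Srebf2 was lower, at -0.10 ± 0.10 (0.557), as was Insig2, at -0.11 ± 0.07 (0.316). Scap stood between 33.6 and 37.0 CPM and Insig2 between 70.8 and 76.4 CPM as group means.

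In the fatty acid arm, Acly and Me1 were abundant and even. Acly was at 50.8, 61.0 and 55.5 CPM in control, 56.4, 57.5 and 49.1 CPM with sunitinib, 57.1, 45.8 and 56.8 CPM with sorafenib and 48.2, 53.2 and 49.2 CPM with erlotinib. Me1 was at 133, 112 and 110 CPM in control, 102, 114 and 110 CPM with sunitinib, 109, 111 and 113 CPM with sorafenib and 110, 118 and 107 CPM with erlotinib. Neither gene separated any drug from control. Elovl5, which lengthens polyunsaturated fatty acids, differed by 1.37-fold between its highest and lowest library. Acaca, the acetyl-CoA carboxylase that makes malonyl-CoA for synthesis, was at 12.9, 13.6 and 16.3 CPM in control, 13.8, 16.6 and 13.0 CPM with sunitinib, 12.8, 11.4 and 14.1 CPM with sorafenib and 11.8, 11.7 and 9.09 CPM with erlotinib. The erlotinib libraries of Acaca lay below those of control and sunitinib.

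Fasn, the fatty acid synthase, was at 43.5, 60.1 and 69.0 CPM in control and at 45.7, 86.0 and 43.0 CPM with sunitinib. It was at 43.0, 30.6 and 36.1 CPM with sorafenib and at 34.2, 45.7 and 25.9 CPM with erlotinib. The sorafenib libraries lay just below those of control, and the other drugs overlapped with control. Scd1, the main stearoyl-CoA desaturase, was at 40.7, 94.5 and 80.6 CPM in control, 40.1, 167 and 44.0 CPM with sunitinib, 59.3, 39.8 and 36.8 CPM with sorafenib and 46.0, 57.7 and 26.7 CPM with erlotinib. Its highest library was 6.25-fold above its lowest, the widest range of any member, and every group overlapped with control.

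Elovl6, which lengthens palmitate, was at 1.65, 2.90 and 2.93 CPM in control, 0.911, 4.00 and 1.48 CPM with sunitinib, 0.818, 1.66 and 1.43 CPM with sorafenib and 1.34, 1.2 and 0.868 CPM with erlotinib. Sunitinib_1369 was the highest library for Elovl6, Scd1 and Fasn alike. Scd2, a second desaturase that is widely expressed outside the liver, was at 28.5, 23.95 and 33.4 CPM in control and at 30.8, 33.4 and 29.7 CPM with sunitinib. It was at 20.1, 34.5 and 32.0 CPM with sorafenib and at 19.3, 21.9 and 16.8 CPM with erlotinib. The erlotinib libraries of Scd2 lay below every control and sunitinib library. Scd1, Scd2 and Acat2 had fractional counts in all 12 libraries, so part of their reads could be split with similar genes.

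Thrsp had the opposite order from the other called members. It was at 55.5, 42.7 and 60.4 CPM in control, 28.3, 49.0 and 32.1 CPM with sunitinib, 38.6, 48.1 and 60.7 CPM with sorafenib and 67.3, 60.4 and 59.8 CPM with erlotinib. Sunitinib held the lowest 2 libraries, and every erlotinib library was above every sunitinib library.

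Under sunitinib, 1 member had an unadjusted p below 0.05, against 10.9% of all genes. It was Thrsp, at -0.54 ± 0.22 (log2, SE; edgeR adjusted p = 0.411). Of the 32 members 14 were below control, against 49.6% of all genes. The groups did not overlap for 5 members that were higher (Mvk, Fdft1, Sc5d, Sc4mol and Scap), against 8.33% of all genes, and for 0 that were lower, against 6.22%. Without Sunitinib_1369 the value of Thrsp was -0.81 (adjusted p = 0.34). The median log2 fold change was 0.0034 in the sterol arm and -0.00082 in the fatty acid arm, and both were of either sign across the alternatives tried. That of the fatty acid arm was -0.16 without Sunitinib_1369 and 0.05 without Sunitinib_1368.

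Under sorafenib, 0 members had an unadjusted p below 0.05, against 12.4% of all genes. The smallest p belonged to Fasn, at -0.65 ± 0.31 (log2, SE; edgeR adjusted p = 0.425), and Elovl6, at -0.93 ± 0.48 (adjusted p = 0.446). Of the 32 members 21 were below control, against 50.2% of all genes, among them 8 of the 9 fatty acid members. Fasn, Dhcr7 and Ebp were lower without overlap, against 7.7% of all genes, and Scap was higher without overlap, against 8.61%. The medians were -0.06 in the sterol arm and -0.11 in the fatty acid arm. The latter was -0.24 without Sorafenib_1373, -0.19 without Control_1366 and -0.07 without Control_1367, and it was 0.02 with the white fat marker score, defined further on, as a term.

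Under erlotinib, 9 members had an unadjusted p below 0.05, all with lower levels, against 15.6% of all genes in either direction. None passed the adjustment. The fatty acid members among them were Scd2 at -0.57 ± 0.19 (log2, SE; edgeR adjusted p = 0.189), Acaca at -0.39 ± 0.14 (0.216), Elovl6 at -1.12 ± 0.49 (0.292) and Fasn, whose adjusted p was 0.311. The sterol members were Mvd at -0.80 ± 0.27 (adjusted p = 0.189), Lss at -0.80 ± 0.33 (0.271), Stard4 at -0.48 ± 0.20 (0.272), Acat2 at -0.58 ± 0.25 (0.291) and Hsd17b7 at -0.65 ± 0.28 (0.296). Without Control_1365, the highest control library for Mvd, its value was -0.49 (0.477). With the atrial marker score as a term Lss was at -0.49 (0.561) and Elovl6 at -0.73 (0.578).

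Of the 32 members 24 were below control in erlotinib hearts, against 51.8% of all genes. This held for 15 of 18 sterol members and 7 of 9 fatty acid members. Of 10 other sterol genes, listed apart from the members, 3 were below control and 7 above, with a median of 0.05. The highest of those was Aacs, acetoacetyl-CoA synthetase, at 0.60 ± 0.20 (log2, SE; edgeR adjusted p = 0.19), named after its value was seen. Of 21 other fatty acid genes, 14 were below control and 7 above, with a median of -0.04. The groups did not overlap for 7 members, all lower (Mvd, Lss, Hsd17b7, Stard4, Scd2, Acaca and Elovl6), against 10.4% of all genes lower without overlap. For 0 members were they higher without overlap, against 10.2%. The median log2 fold change was -0.13 in the sterol arm, 0.06 in the regulators and -0.39 in the fatty acid arm. In the same comparison most markers of several other cell types lay on 1 side of control, and their part in it was not tested. Atrial markers were lower for 12 of 13 (5 without overlap), fibroblast markers for 12 of 12 (4) and macrophage markers for 14 of 15 (2). Liver markers were lower for 5 of 5 (1 without overlap) and Schwann cell markers for 6 of 8 (3, with 1 higher without overlap). Brown fat markers were higher for 5 of 5 (1 without overlap). The summed levels of atrial, fibroblast, macrophage and liver markers overlapped with control, and those of Schwann cell, brown fat and endothelial markers did not. Endothelial markers summed to 1587 to 1809 CPM in control and 1814 to 2058 CPM with erlotinib. They were higher for 7 of 11 (2 without overlap, with 1 lower without overlap). Fibroblast markers summed to 3931 to 5071 CPM in control and 3478 to 3960 CPM with erlotinib, and brown fat markers to 1467 to 1499 and 1551 to 1904 CPM. The listed brown fat markers were Ucp1, Cidea, Elovl3, Ppargc1a, Dio2, Kcnk3, Cpt1b and Otop1, and 5 of these 8 were tested. Ucp1, the defining one, was at 0 to 0.13 CPM over the 12 libraries. The brown fat sum thus came almost wholly from the other markers, and whether brown fat tissue made it was not tested. Summed over the 18 sterol members, the level was 156 to 165 CPM in control, 164 to 175 CPM with sunitinib, 151 to 161 CPM with sorafenib and 136 to 146 CPM with erlotinib. Over the 9 fatty acid members it was 406 to 473 CPM in control and 334 to 412 CPM with erlotinib, which overlapped. It was 361 to 567 CPM with sunitinib and 365 to 396 CPM with sorafenib.

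**Figure D3:**
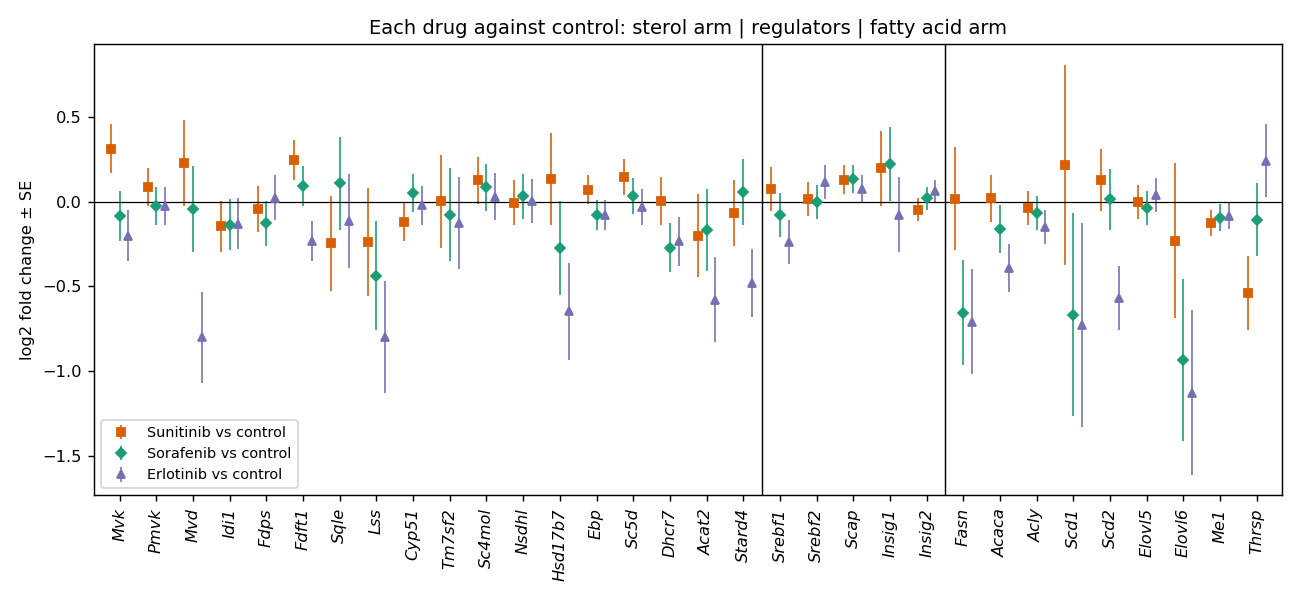
Log2 fold change of each member against control (edgeR), with its SE as the bar, for the 3 drugs. Erlotinib values lie below 0 for 24 of 32 members and reach -1.12 for Elovl6, and no point passed an adjusted p of 0.05.

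Between the drugs, members passed the test in 1 of 3 comparisons, that of sunitinib with erlotinib. There 5 of 32 members passed, against 11.9% of all genes tested, so the share of members was near that of all genes. Of these, 4 were higher with sunitinib, against 6.35% of all genes, and 1 was lower, against 5.52%. Fdft1 was higher by 0.48 ± 0.12 (log2, SE; edgeR adjusted p = 0.0233), Mvd by 1.02 ± 0.27 (0.0275), Scd2 by 0.70 ± 0.19 (0.0343) and Mvk by 0.51 ± 0.15 (0.0413). Thrsp was lower, at -0.78 ± 0.22 (adjusted p = 0.0439). The 2 groups did not overlap for any of the 5. Over all members, 12 were higher without overlap, against 18.1% of all genes, and 3 were lower, against 15.6%.

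The calls were not stable to leaving out 1 library, which also cuts a group from 3 libraries to 2 where it belongs to a compared drug. Without Sunitinib_1370, Erlotinib_1374 or Erlotinib_1376, 0 members passed. Without Sunitinib_1368, Sunitinib_1369 or Erlotinib_1375, 2 members passed. Every fold change of the 5 kept its sign, Fdft1 between 0.38 and 0.55, Mvd between 0.75 and 1.147, Scd2 between 0.60 and 0.79, Mvk between 0.39 and 0.62 and Thrsp between -1.05 and -0.62 when 1 library was left out. Over all genes, where 1595 were called with all libraries, 404 to 1700 were called with 1 left out.

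Atrial markers were higher with sunitinib for 12 of 13, and 4 of them passed. The atrial marker score, a mean log2 level over 13 markers, was 1.09, 1.52 and -1.05 in the sunitinib libraries and 0.39, -0.47 and -1.47 in the erlotinib libraries. With that score as a term, 2 members passed: Fdft1 at 0.52 (edgeR adjusted p = 0.0301) and Mvd at 1.19 (0.0184). Scd2 was then at 0.59 (0.0756), Mvk at 0.48 (0.0841) and Thrsp at -0.85 (0.0642).

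**Figure D4:**
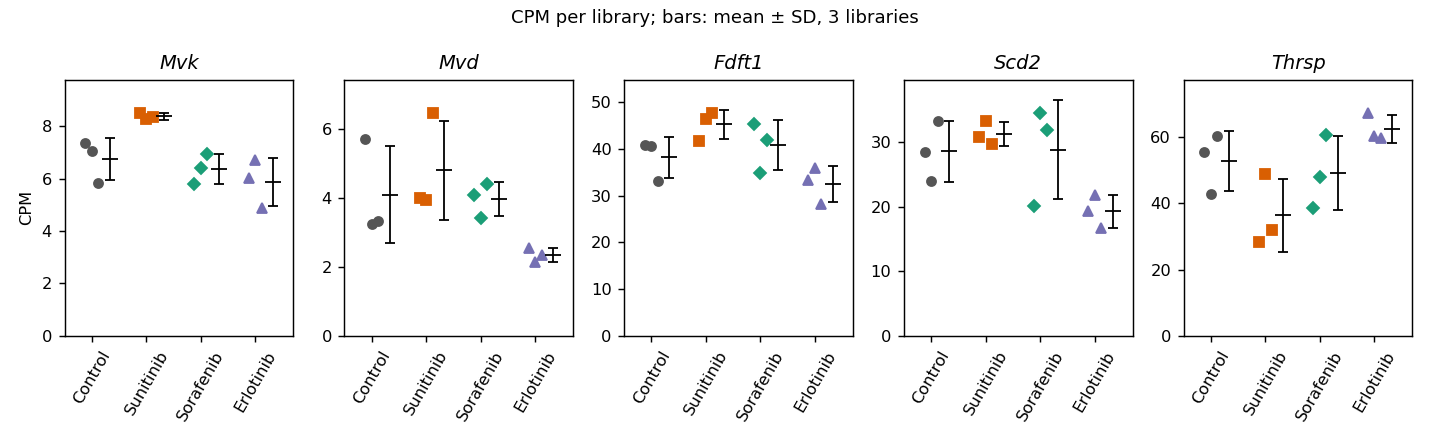
CPM per library of the 5 members that passed between sunitinib and erlotinib, with the mean and SD of 3 libraries beside each group. The sunitinib and erlotinib points do not overlap in any panel, and the control points overlap with sunitinib for Mvd, Scd2 and Thrsp.

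Between sunitinib and sorafenib 0 members passed, against 0.0372% of all genes. The smallest p was that of Mvk, higher with sunitinib by 0.40 ± 0.15 (log2, SE; edgeR adjusted p = 0.389). Between sorafenib and erlotinib 0 members passed, against 2.7% of all genes. Scd2 was at 0.58 ± 0.19 (adjusted p = 0.119), Mvd at 0.76 ± 0.27 (0.145), Fdft1 at 0.32 ± 0.12 (0.156) and Stard4 at 0.54 ± 0.20 (0.162), all above erlotinib. Without Sorafenib_1371, 1 member passed, Scd2 at 0.78 (adjusted p = 0.0355). The 95% intervals on a member's log2 fold change reached 0.131 to 1.18 to either side over the 6 comparisons, widest for Scd1, so a miss of the threshold does not show that drugs acted alike.

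Several fatty acid members are also abundant in fat cells, and markers of white fat differed between libraries. The white fat marker score was 0.39, 0.29 and 0.78 in control, -0.14, 0.99 and -0.34 with sunitinib, -0.17, -1.07 and -0.48 with sorafenib and 0.06, 0.99 and -1.30 with erlotinib. It averages the log2 levels of 9 of 11 listed markers. Those listed were Adipoq, Plin1, Lep, Cidec, Cfd, Retn, Lipe, Pnpla3, Slc7a10, Nnat and Pck1. A marker regulated together with fat synthesis would move the score without any change in fat tissue, and this was not tested. The 11 together gave 98.6 to 107 summed CPM in control and 78.2 to 131 in sunitinib. They gave 62.2 to 97.3 in sorafenib and 90.5 to 136 in erlotinib. Lipe, a lipase that heart muscle also makes, held most of that sum. Without it, the sum was 7.68 to 54.5 CPM. Adipoq, the defining hormone of fat cells, was at 3.53 ± 0.355 CPM in control and 1.33 ± 0.348 CPM in sorafenib (SD, n = 3).

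Of the 32 members, Fasn followed the white fat score most closely across the 12 libraries. Pearson's r was 0.83 (permutation p = 0.00096, adjusted over 32 relations 0.0307) and Spearman's rho was 0.811 (permutation p = 0.00257, adjusted 0.0822). Without Erlotinib_1376 and Sorafenib_1372, which were farthest from the median score, r was 0.695, and with the group means removed it was 0.872. For Scd1, r was 0.752 (permutation p = 0.00411, adjusted 0.0658) and rho was 0.762 (0.00579, adjusted 0.0926). Its r without those 2 libraries was 0.683. For Acaca, r was 0.666 (permutation p = 0.0168, adjusted 0.179), 0.303 without those 2 libraries and 0.834 with the group means removed. For Scd2, r was 0.199 (permutation p = 0.529, adjusted 0.869). Under Pearson's r, 1 of the 32 relations passed the adjustment.

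With the white fat score as a term in the edgeR fit, the sorafenib value of Fasn against control was -0.14 in place of -0.65, and that of Elovl6 was -0.40 in place of -0.93 (-0.49 with the atrial score as the term). Every sorafenib library scored below every control library, so the term also takes up any drug difference that follows the score. The part of fat tissue in these values was not tested and cannot be told apart from that of the drug. Among the members called between sunitinib and erlotinib, Fdft1 at 0.45 (adjusted p = 0.0268), Mvd at 1.05 (0.0367) and Thrsp at -0.84 (0.0423) passed with the term, and Scd2 at 0.68 (0.0527) and Mvk at 0.50 (0.056) did not. Fasn, which was not called without the term, was then higher with sunitinib by 0.58 (adjusted p = 0.0396). Liver markers, which also move with these libraries, summed to 20.3 to 131 CPM in control, 19.0 to 67.4 with sunitinib, 9.85 to 19.0 with sorafenib and 14.2 to 32.3 with erlotinib, and their part was not tested.

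**Figure D5:**
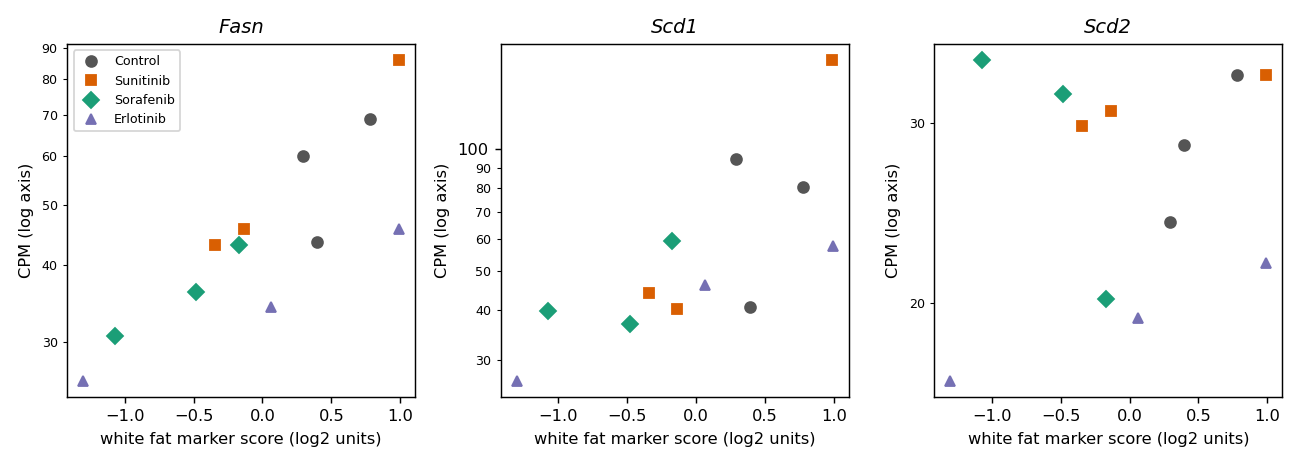
CPM (log axis) of Fasn, Scd1 and Scd2 against the white fat marker score (log2 units) in 12 libraries, marked by group. Fasn and Scd1 are highest in Sunitinib_1369 at 86.0 and 167 CPM, where the score is 0.99. Both are lowest in Erlotinib_1376 at 25.9 and 26.7 CPM, where the score is -1.30. Erlotinib_1375, also at a score of 0.99, lies below Sunitinib_1369 for both.

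Another 44 genes of the same pathways were tested, 10 sterol genes, 13 genes that control these pathways and 21 fatty acid genes. Against control none passed for any drug. Idh1, the cytosolic isocitrate dehydrogenase that makes NADPH, was at 105, 79.7 and 75.04 CPM in control, 90.4, 101 and 98.2 CPM with sunitinib, 122, 94.8 and 99.8 CPM with sorafenib and 63.0, 63.3 and 58.9 CPM with erlotinib. The erlotinib libraries of Idh1 lay below all others. It was higher with sunitinib than with erlotinib by 0.64 ± 0.12 (log2, SE; edgeR adjusted p = 0.00824) and with sorafenib than with erlotinib by 0.77 ± 0.12 (0.0181). Against control its erlotinib value was -0.49 ± 0.12 (adjusted p = 0.0997).

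Por, the reductase that passes electrons to Cyp51 and Sqle, was at 55.1, 51.6 and 51.9 CPM in control, 48.3, 46.5 and 46.0 CPM with sunitinib, 54.9, 52.5 and 53.9 CPM with sorafenib and 59.9, 56.0 and 60.4 CPM with erlotinib. It was lower with sunitinib than with erlotinib (log2 -0.32 ± 0.06, edgeR adjusted p = 0.00694), and control lay between them. Fads1, a fatty acid desaturase, was higher with sunitinib than with erlotinib by 0.43 ± 0.13 (adjusted p = 0.0482). Of the 13 genes that control these pathways, 0 passed in any comparison, beside the shares of all genes given above for each, at most 11.9%. Among them Tmem33 was at 0.22 ± 0.07 with erlotinib against control (adjusted p = 0.181) and Mbtps1, the protease that makes the initial cut in SREBP, at -0.18 ± 0.06 (0.183). Under sorafenib, Rnf139, an endoplasmic reticulum ubiquitin ligase, was at 0.22 ± 0.07 (0.244), and Mlxipl, the carbohydrate response factor, at 0.47 ± 0.18 (0.328).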

How the data were processed

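Heart polyA RNA of 12 libraries was analysed from per-gene files. The authors deposited RSEM expected counts (estimated counts, fractional where reads are shared), TPM, and a scaled signal (expected counts multiplied by a factor for each library). The submitters' processing notes name RSEM, Picard 1.88, SAMtools 1.2 and mm9. The aligner is not given in the sources used here. For the listed genes, the deposited TPM summed to 54.9% to 60.8% of a full set, so column totals (14304529 to 16534769) are not full depths.

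Expected counts were rounded, filtered with filterByExpr (13440 of 21705 genes kept), TMM-normalized (factors 0.949 to 1.04) and fitted with edgeR 4.0.16 in R 4.3.3 (robust quasi-likelihood, 1 coefficient per group, Benjamini-Hochberg adjustment over all 13440 genes, threshold 0.05). The SE of a log2 fold change was its size over the square root of F. CPM used TMM library sizes, and scores were mean log2 CPM with a prior count of 2, centred over libraries. DESeq2 1.42.0 and limma 3.58.1 were alternatives, and all fits were tested on simulated data. Within-group library pairs differed by more than sampling noise, with chi-square per degree of freedom from 7.79 to 18.1.

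Fold changes are named for members with an unadjusted p below 0.05 (at most 8 per comparison with control and 4 between drugs, or, where there is none, the 2 of smallest p), and for at most 3 other pathway genes per comparison. Thrsp between sunitinib and erlotinib and Fasn under erlotinib lie past those limits and were named after their values were seen, as were members listed by their lack of overlap. The members and gene lists were chosen with earlier results of these data known. Promoters came from a GRCm38.p6 table and motifs were letter matches. Sc4mol is the older symbol of Msmo1.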

Additional observations from a re-analysis of the deposited data

How the results depend on the processing

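Across 21 alternatives, no member passed against control for any drug, or between sunitinib and sorafenib. Between sunitinib and erlotinib, where 5 passed, the count was 3 without a filter on low counts, 3 with only the 2 groups compared, 2 with the atrial score and 0 without Control_1366 and Sunitinib_1370 together (a pair chosen with earlier results known), and 0 to 5 with 1 library left out. Between sorafenib and erlotinib DESeq2 gave 1 (Scd2) and leaving out 1 library gave 0 to 1. For any difference, DESeq2 gave 3 (Fdft1, Scd2 and Thrsp) and leaving out 1 library 0 to 1. The cause was not tested. The erlotinib median of the sterol arm was -0.18 with limma and -0.17 to -0.10 with 1 library left out, and the sunitinib median was -0.0057 to 0.0475. The 5 called fold changes lost the call in 43 of 105 alternative values. The 16 that were not called gained one in 2 of 336 values, and 0 of the 21 reversed. No paired analysis was possible because the groups share no replicate numbers. Sqle and Elovl6 rest on 12 to 62 counts, which limits their precision.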
